A study of Homo sapiens with 21 samples.

Results

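Multi-way chromatin interactions of PTPRC were read in 7 Tri-C libraries, which are all the libraries of this gene among 371 libraries that cover 53 genes. PTPRC (ENSG00000081237.21) encodes CD45, a receptor-type tyrosine phosphatase carried by nearly all nucleated blood cells. Tri-C ligates NlaIII fragments that lie close together in the nucleus and captures reads that contain a chosen viewpoint fragment, so that a read with 2 further fragments (reporters) records a three-way interaction. A group of 4 libraries was captured from a viewpoint at an enhancer upstream of the gene and a group of 3 from a viewpoint at a CTCF-binding site (CBS) inside it.

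BLaER1 cells were used, a B cell leukemia line of human origin in which CEBPA, a myeloid transcription factor, can be switched on to convert the cells into induced macrophages (iMacs). Both viewpoints were sampled 0 h, 24 h and 96 h after induction, the 0 h cells being the B cell stage. The enhancer viewpoint was also sampled at 96 h in a BLaER1 subclone whose CTCF carries an auxin-inducible degron (CTCF-AID), kept in auxin through the conversion. The 96 h control is labelled only as BLaER, so that loss of CTCF, the subclone, the tag and auxin cannot be told apart in that comparison. How far CTCF was lost was not measured in these libraries. No CBS library of depleted cells was analysed here. Each deposited library pools 3 biological replicates, which leaves 1 library per condition. All intervals below therefore cover counting error only, all p-values compare libraries rather than conditions, and no molecular identifiers are described that would separate molecules from PCR copies.

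CD45 removes phosphates from Src-family kinases next to antigen receptors and thereby sets the threshold of lymphocyte signaling. It is made by B cells and macrophages alike, in isoforms that differ by alternative exons, which encode part of the extracellular stretch. CTCF is a DNA-binding factor that halts cohesin in a way that depends on the orientation of its motif. RNA levels were not measured in these libraries.

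The gene covers 119.0 kb on the plus strand (chr1:198638457-198757476, hg38), with 33 exons in its canonical transcript and a second intron of 53.0 kb. The enhancer viewpoint is an intergenic fragment of 269 bases, 95.1 kb upstream of the start site and close to the start of ATP6V1G3, which encodes a subunit of the proton-pumping vacuolar ATPase. The CBS viewpoint is a fragment of 163 bases within an intron, 61.5 kb downstream of the start site. The 2 viewpoint fragments and the promoter are shown because the comparisons below are made between them.

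The sequences are the plus strand of hg38, and the promoter is the RefSeq entry for PTPRC. In the enhancer fragment (chr1:198543797-198544065) and in the promoter (chr1:198638790-198639089), which are the first pair of lines, capitals mark the letters AGGAAGT on either strand, a core bound by ETS factors such as the myeloid and B cell factor PU.1. The CBS fragment (chr1:198700422-198700584) was searched on both strands for the core of the CTCF motif, with at most 1 mismatch over its 10 fixed letters, and holds no match.
PTPRC enhancer viewpoint fragment: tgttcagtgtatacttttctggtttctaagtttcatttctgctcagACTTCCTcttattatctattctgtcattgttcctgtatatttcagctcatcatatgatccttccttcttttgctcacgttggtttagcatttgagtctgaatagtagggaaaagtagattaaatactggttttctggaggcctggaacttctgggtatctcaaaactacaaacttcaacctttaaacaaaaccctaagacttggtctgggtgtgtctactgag
PTPRC promoter: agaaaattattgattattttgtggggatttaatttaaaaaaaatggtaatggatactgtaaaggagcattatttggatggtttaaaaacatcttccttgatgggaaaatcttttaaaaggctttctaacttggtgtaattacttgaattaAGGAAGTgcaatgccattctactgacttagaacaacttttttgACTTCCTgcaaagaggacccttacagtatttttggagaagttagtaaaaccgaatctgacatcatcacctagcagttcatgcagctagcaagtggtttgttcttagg
PTPRC CBS viewpoint fragment: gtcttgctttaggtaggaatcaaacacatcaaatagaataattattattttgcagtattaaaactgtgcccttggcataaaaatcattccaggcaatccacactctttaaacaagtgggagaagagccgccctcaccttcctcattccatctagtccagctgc

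AGGAAGT occurs once in the enhancer fragment, on the minus strand, and at 2 places in the promoter, once on each strand. The letters were chosen after these sequences had been read. Of 35116 RefSeq promoters of the same length, 8.24% hold them, as do 6.0% of 4832 stretches as long as the enhancer fragment along the surrounding region. A CTCF core match occurs in 0.251% of 7975 stretches as long as the CBS fragment, and in 13 places outside PTPRC between the end of NEK7 and the start of MIR181A1HG. A match is a description of letters and does not show that a factor is bound.

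Depth was close to even along the conversion. The enhancer libraries of 0 h, 24 h and 96 h held 67287, 67044 and 61891 three-way counts, and the CBS libraries 57626, 64346 and 64031. The depleted library was deeper, with 96117 counts. It held 46298 distinct pairs of fragments, against 40321 in the 96 h control. Of these pairs 61.6% were counted a single time, against 76.7% in the control. Between 50.1% and 57.3% of counts had both reporters within 1 Mb of the viewpoint, and these are the denominator of the percentages below. Counts whose reporters were separated by over 10 kb, both from the viewpoint and mutually, are called distant and made up 28.9%, 29.0% and 29.0% of them in the enhancer time course, and 31.2%, 32.1% and 32.7% in the CBS time course. In the depleted library the distant share was 18.2%, against 29.0% in the 96 h control, while pairs of neighboring fragments made up 51.6% against 37.0%. The median distant share over 51 genes moved likewise, to 19.3% in the depleted libraries, against 29.4% at 96 h. The part of this shift in the results of the depleted library was not tested. Results of the depleted library are as shares of counts within 1 Mb unless the distant scale (shares of distant counts) is named. Values of named windows, segments and bins are given on both scales. Log2 ratios throughout are log2 odds ratios, of the counts in a window, segment or bin over the remaining counts. Where shares are large, they are larger in size than log2 ratios of the shares.

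The first question was whether three-way interactions of the enhancer with the PTPRC promoter became more frequent as the cells became iMacs. They did so late. Contact below refers to such three-way counts with a further distant reporter, and pairwise contact was not measured here. Three-way interactions with a reporter within 6 kb of the start site (a 12 kb window) were near their 0 h level at 24 h. At 96 h the odds of such a reporter were 2.21-fold those at 0 h, while for the CBS window no difference was detected. The promoter window had 222 counts at 0 h, 231 at 24 h and 420 at 96 h, or 0.617%, 0.637% and 1.35% of counts. The exact 95% intervals of the first and second of these shares were 0.538% to 0.703% and 0.557% to 0.724%, and that of the 96 h share was 1.23% to 1.49%. The 96 h interval overlaps neither of the earlier ones.

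On the log2 scale the odds of promoter contact at 96 h stood 1.14 above 0 h (95% interval 0.91 to 1.39). The adjusted p was 2.07e-22 (Fisher's exact test with Benjamini-Hochberg adjustment over 51 genes). Against 24 h the odds at 96 h stood 1.10 higher (0.86 to 1.34, same exact test, adjusted p = 1.43e-20). For 24 h against 0 h the log2 ratio was 0.05 (−0.23 to 0.32, exact test, adjusted p = 0.756). Promoter calls were common among the genes measured, with 35 of 51 higher at 96 h than at 0 h (68.6%), 31 higher at 96 h than at 24 h (60.8%), and 28 higher and 14 lower at 24 h than at 0 h (54.9% and 27.5%). Among the 51 log2 ratios PTPRC ranked 12th from the highest for 96 h against 0 h, 3rd for 96 h against 24 h and 32nd for 24 h against 0 h. The medians over the 51 genes were 0.59, 0.41 and 0.23 in the same order.

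The CBS window behaved otherwise. It had 280 counts at 0 h, 278 at 24 h and 234 at 96 h, which is 0.778%, 0.766% and 0.755% of counts. All 3 intervals overlap. None of the 3 log2 ratios was called: −0.02 for 24 h against 0 h (adjusted p = 0.939), −0.02 for 96 h against 24 h (adjusted p = 0.912) and −0.04 for 96 h against 0 h (−0.30 to 0.21, adjusted p = 0.771; Fisher's exact test in each case). Of the 51 genes, 31 were called higher in the CBS window at 96 h than at 0 h (60.8%) and 5 lower (9.8%), and PTPRC ranked 41st from the highest. At 96 h against 24 h, 58.8% were higher and 9.8% lower, and at 24 h against 0 h 45.1% and 11.8%.

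**Figure D1:**
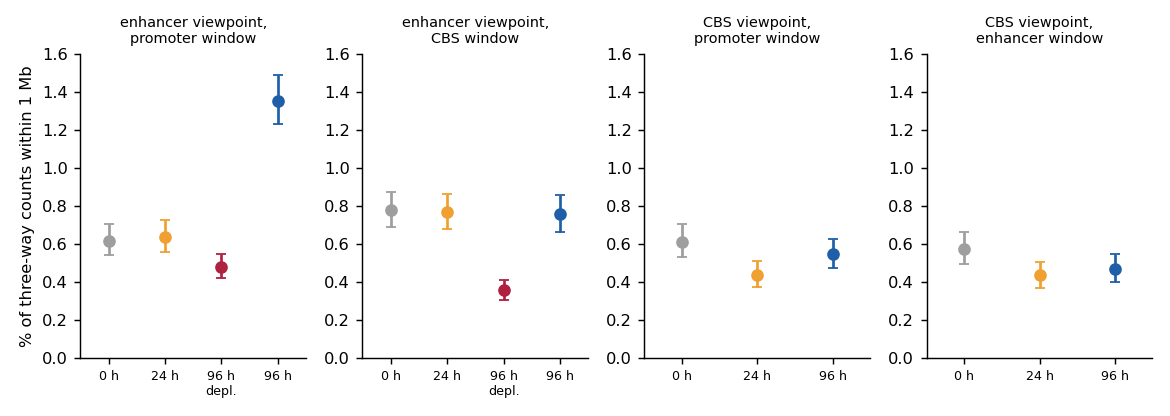
Share of three-way counts within 1 Mb of the viewpoint that had a distant reporter in a 12 kb window at the promoter, the CBS or the enhancer, for each PTPRC library; points are single pooled libraries and bars exact 95% binomial intervals. The promoter share of the enhancer viewpoint was 1.35% at 96 h and at most 0.637% in the other 3 enhancer libraries, and from the CBS the promoter share was lowest at 24 h, at 0.437%.

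Reads that joined the enhancer, the promoter and the CBS window at once were too rare to test. The time course had 3, 0 and 2 of them in its order, and the depleted library 5. A count of 0 among 36280 allows a share of up to 0.00827%. From the CBS viewpoint the counts joining enhancer and promoter were 6 at 0 h, 0 at 24 h and 2 at 96 h. A change in this three-element interaction was not detectable at this depth.

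Windows of 12 kb stepped along the locus hold different numbers of NlaIII fragments, which are the same in all libraries: 38 at the promoter, 53 in the window 12 kb upstream and 47 in the window 12 kb downstream. At 0 h the promoter had 222 counts, the upstream window 372 and the downstream window 273, or 5.84, 7.02 and 5.81 counts per fragment. At 96 h they had 420, 541 and 339 counts, or 11.1, 10.2 and 7.21 per fragment. Per fragment the promoter thus stood below the upstream window at 0 h and above both windows at 96 h. These ratios carry no test.

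At 96 h all 9 windows from 48 kb upstream to 48 kb downstream of the start site had log2 ratios above 0 against 0 h. They ran from 0.23 (0.04 to 0.41) at 48 kb upstream to the 1.14 of the promoter itself. The window 24 kb upstream, with 453 counts against 247, had 1.10 (0.87 to 1.33), an interval that overlaps that of the promoter. The window 12 kb upstream had 0.77 (0.57 to 0.96) and the window 12 kb downstream 0.53 (0.30 to 0.77). By these estimates the gain was largest in the windows from 24 kb upstream to the start site. The window 36 kb upstream (0.57, 0.38 to 0.77) was close to those centered inside the gene (0.38 to 0.53), and the window 48 kb upstream was below them. These windows were added after the data had been seen and carry intervals only.

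**Figure D2:**
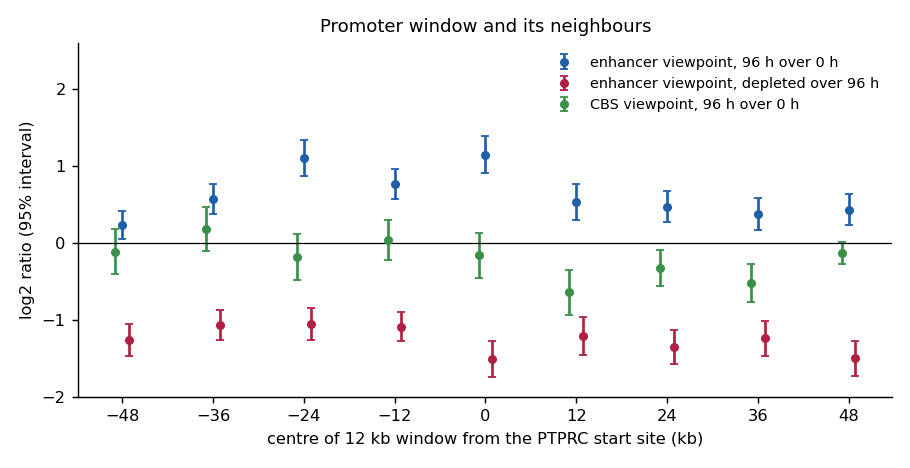
Log2 odds ratios of 12 kb windows against the remaining counts within 1 Mb, by the distance of their centers from the PTPRC start site. They are given for 96 h over 0 h from both viewpoints and for the depleted library over the 96 h control. Bars are exact 95% intervals. For the enhancer viewpoint the 96 h over 0 h ratio was 1.14 at the start site, and the depleted over 96 h ratio was −1.51 there.

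The other fragment in a read that held both enhancer and promoter lay mostly in the same neighborhood. Of the 420 such counts at 96 h, 132 had it between the enhancer and the start site (31.4%, exact 95% interval 27.0% to 36.1%), 84 between NEK7 and the enhancer, and another 84 between the start site and exon 3. At 0 h, 61 of 222 counts had it between the enhancer and the start site (27.5%, 21.7% to 33.9%). Those intervals overlap. Past the end of the gene, toward MIR181A1HG, the number was 5 at 96 h and 9 at 0 h, the only segment in which it was lower at 96 h.

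Gene body and flanks were then mapped in 10 kb bins within 500 kb of the enhancer viewpoint, 100 of them measured. At 24 h little of the gene moved: 8 bins were called higher than at 0 h and 3 lower, against 18.4% and 17.2% of the bins of all 51 genes, and none of the 13 bins in PTPRC was called. Of the 8, 5 lay downstream of the gene. The largest rise was at chr1:198880001-198890000 in MIR181A1HG, the host transcript of the miR-181a1 and miR-181b1 genes, with 44 counts at 24 h and 20 at 0 h (log2 ratio 1.11, adjusted p = 0.0135, Fisher's exact test). MIR181A1HG runs on the minus strand, so that the stretch between the end of PTPRC and the start of MIR181A1HG holds the whole host transcript. Over that stretch there were 1041 counts at 24 h and 808 at 0 h (log2 ratio 0.36, 0.23 to 0.50).

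At 96 h the enhancer gained contact with one unbroken block. Against 0 h, 18 bins were called higher and 14 lower (background 26.0% and 27.8%), and 9 of the 18 followed each other without a gap from chr1:198600001 to chr1:198690000, from upstream of the start site to near the end of intron 2. The same 90 kb were the longest run of higher bins against 24 h, where 15 bins were higher and 16 lower (17.5% and 17.8%). The bin with the start site had 377 counts at 96 h and 231 at 0 h (log2 ratio 0.93, exact test, adjusted p = 9.34e-14). Within the gene the bin with most counts was chr1:198680001-198690000, near the end of intron 2, which had 428 counts at 96 h and 325 at 0 h (0.62, exact test, adjusted p = 4.02e-08). The steepest rise in the block was centered 24 kb upstream of the start site, at chr1:198610001-198620000, with 358 counts at 96 h and 198 at 0 h (1.08, exact test, adjusted p = 1.43e-16). Outside the block the largest rise was in NEK7, at chr1:198160001-198170000, with 120 counts at 96 h and 65 at 0 h (1.10, exact test, adjusted p = 2.17e-06), and the largest fall was upstream of that gene, at chr1:198110001-198120000, with 32 and 92 (−1.30, adjusted p = 1.51e-05). The bin chr1:199000001-199010000 in LINC01222, a long noncoding RNA beyond the microRNA host gene, had 17 counts at 96 h and 66 at 24 h (−1.70, exact test, adjusted p = 1.35e-05).

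The block ended short of the CBS. The next bin, chr1:198690001-198700000, had 226 counts at 96 h and 244 at 0 h and was not called, and the bin after it had 164 at 96 h and 221 at 0 h. By annotated segment, intron 2 with the promoter end of the gene had 1676 counts at 96 h and 1405 at 0 h (log2 ratio 0.49, 0.39 to 0.60), whereas the stretch from exon 3 to the end of the gene had 670 at 96 h and 884 at 0 h (−0.19, −0.34 to −0.04). The part between the enhancer and the start site had 3361 counts at 96 h and 3118 at 0 h (0.36, 0.28 to 0.43). A reporter anywhere in PTPRC was found in 7.36% of counts at 96 h and 6.21% at 0 h (log2 ratio 0.26, exact test, adjusted p = 4.73e-09), a call shared by 36 of 51 genes (70.6%). At 24 h it was 6.15% (log2 ratio −0.01 against 0 h, with 47.1% of genes higher and 23.5% lower), and 96 h stood 0.28 above 24 h (66.7% of genes higher).

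On the gene's side of the enhancer, a smaller share of distant reporters lay beyond the CBS at 96 h. At 0 h, 4045 of 9162 such distant reporters lay past the CBS window (44.1%), at 24 h 4584 of 9906 (46.3%) and at 96 h 2852 of 8785 (32.5%). The log2 odds at 96 h had a ratio of −0.72 to 0 h (−0.81 to −0.63, exact test, adjusted p = 5.61e-58) and of −0.84 to 24 h (adjusted p = 3.07e-82). At 24 h they were 0.12 above 0 h (exact test, adjusted p = 0.00476). A rise at 24 h was called at 20 of 51 genes (39.2%) and a fall at 20, with a median of −0.03. A read can add both of its reporters to these numbers, so that they are not all independent. A lower share at 96 h than at 0 h was called at 36 of 51 genes (70.6%), and PTPRC ranked 34th from the highest. For 96 h against 24 h it ranked 47th, and 37 genes were lower (72.5%). By distance, reporters 400 to 1000 kb downstream of the enhancer fell from 12.1% of all distant reporters at 0 h to 8.83% at 96 h. Those 200 to 400 kb downstream were 5.03% and 5.15%. Those 50 to 100 kb downstream, before the CBS, rose from 6.46% to 11.4%. Far reporters fell on the other side too, from 19.5% to 16.3% at 400 to 1000 kb upstream. These shares carry no test.

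Upstream of the enhancer, higher and lower bins lay close together. Bins from chr1:198460001 to chr1:198490000 had 327, 329 and 348 counts at 96 h, against 316, 279 and 302 at 0 h, and all were called higher. The 5 bins from chr1:198370001 to chr1:198420000 were the longest run of lower bins, and their counts were 92, 89, 96, 77 and 86 at 96 h, against 190, 171, 159, 131 and 167 at 0 h. The higher bins lie in ENSG00000287989, a long noncoding RNA on the minus strand, and the lower bins hold no annotated gene.

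**Figure D3:**
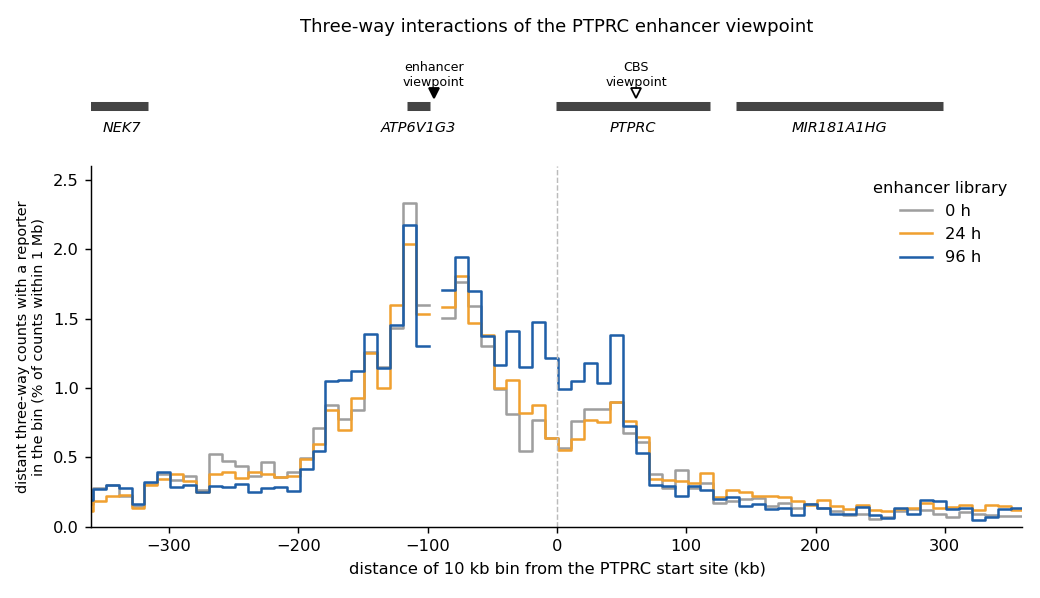
Distant three-way counts of the enhancer viewpoint with a reporter in each 10 kb bin, as a percentage of counts within 1 Mb, by distance from the PTPRC start site, for the 0 h, 24 h and 96 h libraries; the gap is the bin of the viewpoint, and bins within 10 kb of it are only partly measured. The 96 h line lies above the other lines over the 90 kb block around the start site and falls back to them before the CBS.

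Depletion of CTCF was the next comparison. In the depleted library three-way interactions of the enhancer with the promoter were less frequent. They had 237 counts or 0.480% (0.421% to 0.545%), against 420 counts or 1.35% in the 96 h control. The log2 ratio was −1.51 (−1.75 to −1.28, adjusted p = 3.36e-39, Fisher's exact test over 51 genes). As a share of distant counts only, the log2 ratio was −0.85 (exact test, adjusted p = 1.02e-12). Lower promoter contact was called at 47 of 51 genes (92.2%), with a median of −0.93, and PTPRC ranked 46th from the highest. These are three-way counts and do not show whether pairwise contact fell. In the paper, pairwise interactions of enhancers and promoters, measured by Micro-Capture-C, were relatively stable across upregulated loci after CTCF depletion.

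The CBS window had 175 counts in the depleted library and 234 in the control (log2 ratio −1.10, −1.39 to −0.81, exact test, adjusted p = 3.18e-14), and −0.43 as a share of distant counts (adjusted p = 0.00435). Lower CBS contact was called at 47 of 51 genes (92.2%), and PTPRC was at their median. A reporter in the gene body was found in 3.56% of counts in the depleted library and 7.36% in the control (−1.11, exact test, adjusted p = 1.39e-122, and −0.48 on the distant scale, adjusted p = 2.73e-20), a fall called at 49 of 51 genes (96.1%). All of these falls passed the test on both scales, and the distant scale gave the smaller ratio each time. With each pair counted once, the log2 ratios were −1.07 for the promoter, −0.51 for the CBS window and −0.70 for the gene body. They passed the exact test in each case.

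Contact beyond the CBS rose. Of distant reporters on the gene's side, 5561 of 9847 lay past the CBS window in the depleted library (56.5%), against 2852 of 8785 in the control (32.5%), a log2 odds ratio of 1.43 (1.35 to 1.52, exact test, adjusted p = 6.35e-239). This measure uses distant reporters only. It was called higher at 49 of 51 genes (96.1%), with a median of 0.70, and PTPRC ranked 4th from the highest.

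In 10 kb bins, the stretch downstream of the gene was higher and the stretch from the enhancer to the end of intron 2 lower on both scales, while bins farther upstream differed between the scales. As shares of counts within 1 Mb, 18 bins were called higher and 47 lower (over the bins of all 51 genes 9.83% and 52.7%). All 18 higher bins were among the 29 downstream of PTPRC. Of the lower bins 30 were among the 50 upstream of the enhancer, 8 between enhancer and gene and 9 among the 13 in the gene, and the longest run of them spanned 170 kb from just past the enhancer to just past the CBS. On the distant scale 41 bins were called higher and 26 lower. Shares over the bins of all 51 genes are not given on that scale, here or for the CBS viewpoint below, so that its numbers have no background. The higher bins were then 27 of those downstream of PTPRC, 3 in the gene and 11 upstream of the enhancer, and the lower ones 12 upstream of the enhancer, 7 between enhancer and gene and 7 in the gene.

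The largest rises were in MIR181A1HG. The bin chr1:198820001-198830000 had 136 counts in the depleted library and 26 in the control (log2 ratio 1.70, 1.10 to 2.38, exact test, adjusted p = 2.34e-09, and 2.38 on the distant scale), and chr1:198910001-198920000 had 140 against 29 (1.58, adjusted p = 8.9e-09, and 2.27 on the distant scale). The next was chr1:198890001-198900000, with 88 and 20 (1.44, exact test, adjusted p = 2.6e-05, and 2.12 on the distant scale). The bin with both microRNA genes had 116 counts in the depleted library and 29 in the control (1.31, exact test, adjusted p = 5.62e-06, and 2.00 on the distant scale), and the bin with the start of the host transcript had 153 against 57 (0.75, adjusted p = 0.00132, and 1.43 on the distant scale). From the end of PTPRC to the start of MIR181A1HG there were 1948 counts in the depleted library and 673 in the control. That is 3.94% against 2.17% of counts within 1 Mb and 21.7% against 7.48% of distant counts. The log2 odds ratio was 0.89 (0.76 to 1.02), and 1.77 (1.64 to 1.91) on the distant scale. In the enhancer time course this stretch had 808, 1041 and 673 counts, or 2.24%, 2.87% and 2.17% of counts within 1 Mb. For 96 h against 0 h the log2 ratio was −0.05 (−0.20 to 0.10).

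Both microRNAs are made from the minus strand, and their mature 5p strands share a seed, in capitals (bases 2 to 8; RefSeq, GRCh38.p14). They are shown because their genes lie in the stretch that gained contact. miR-181a is known for raising the sensitivity of T cells to antigen by lowering several phosphatases. Their levels were not measured here.
hsa-miR-181a-5p (chr1:198859108-198859130): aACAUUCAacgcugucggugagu
hsa-miR-181b-5p (chr1:198858925-198858947): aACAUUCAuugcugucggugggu

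Of the 3 steepest falls among called bins with at least 50 counts, all but 1 were inside the gene. The bin just downstream of the start site, chr1:198640001-198650000, had 153 counts in the depleted library and 309 in the control (log2 ratio −1.69, exact test, adjusted p = 1.54e-33, and −1.04 on the distant scale). The bin at the end of intron 2 had 220 against 428 (−1.64, exact test, adjusted p = 4.08e-44, and −0.99 on the distant scale). The other, chr1:198080001-198090000 upstream of NEK7, had 48 against 89 (−1.56, exact test, adjusted p = 2.01e-09, and −0.89 on the distant scale). From the start site to exon 3 there were 1060 counts in the depleted library and 1676 in the control (log2 ratio −1.38, −1.50 to −1.27, and −0.78, −0.90 to −0.66, on the distant scale). From exon 3 to the end of the gene there were 761 and 670, a difference whose sign turned with the scale (−0.50, −0.65 to −0.34, and 0.20, 0.04 to 0.36, on the distant scale). NEK7, a mitotic kinase that also serves the NLRP3 inflammasome, had 1129 counts in the depleted library and 1119 in the control, which was lower as a share of counts within 1 Mb (−0.68, −0.80 to −0.56) and not on the distant scale (0.01, −0.11 to 0.14).

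**Figure D4:**
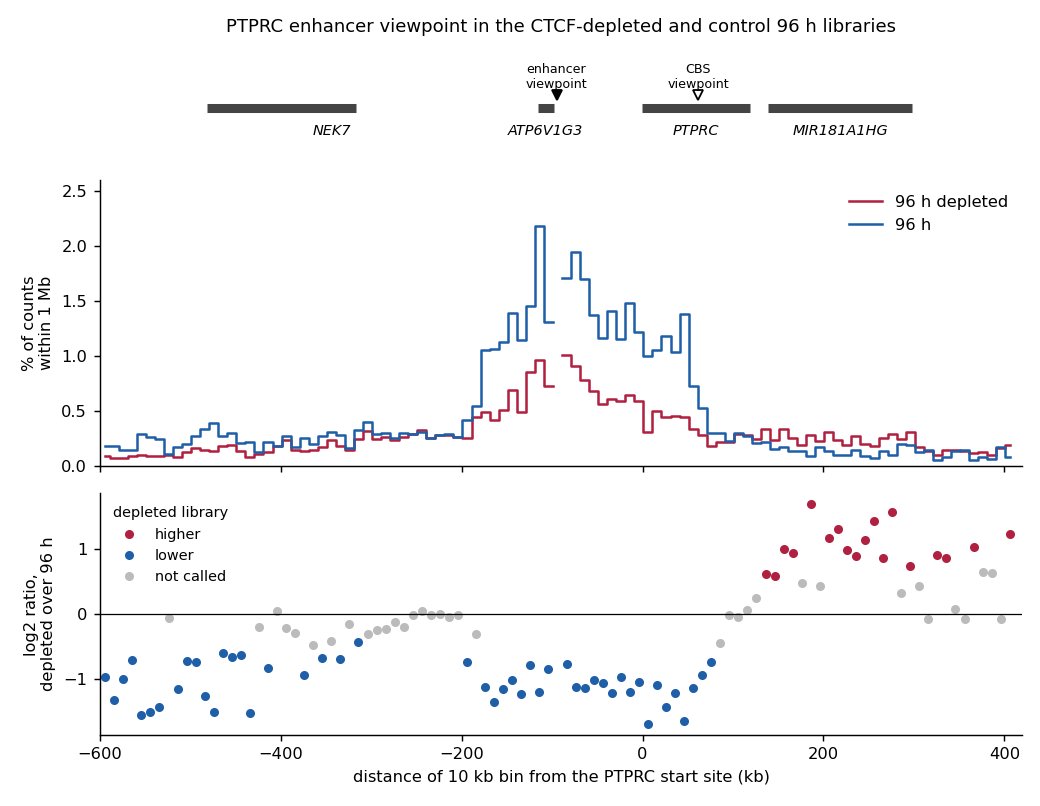
Enhancer viewpoint of PTPRC in the depleted library and in the 96 h control: 10 kb bins as a percentage of counts within 1 Mb (upper) and as log2 ratios of depleted over 96 h (lower), colored by the call of the exact test, against distance from the start site. On this scale all 18 bins called higher lie downstream of PTPRC and the 47 called lower upstream of the gene's end, and with distant counts as the denominator 11 bins upstream of the enhancer and 3 in the gene were called higher as well.

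Reads with both distant reporters on one side of the enhancer moved in the same sense. Those with both reporters downstream were 37.7% of distant counts in the depleted library (36.7% to 38.7%) and 31.1% in the 96 h control (30.2% to 32.1%). Those with both upstream were 26.3% in the depleted library and 30.9% in the control. Over the conversion the share with both reporters downstream was 27.9%, then 30.4% and then 31.1%, and the share with both upstream 37.0%, 33.6% and 30.9%.

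Reads were also sorted by the segments of both reporters. Those that joined the enhancer with the stretch upstream of it and the stretch from the end of PTPRC to the start of MIR181A1HG numbered 442 in the depleted library and 145 in the control. That is 4.91% and 1.61% of distant counts, and 0.895% and 0.468% of counts within 1 Mb. Those with both reporters between enhancer and start site numbered 412 in the depleted library and 689 in the control. That is 4.58% and 7.66% of distant counts, and 0.834% and 2.22% of counts within 1 Mb. This class had 443 counts at 0 h and 535 at 24 h.

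The view from the CBS asked whether the boundary in the gene gained contact with the promoter and the enhancer. It did not: contact with both was lower at 24 h, and neither difference between 96 h and 0 h was called. The promoter window had 198 counts at 0 h, 161 at 24 h and 195 at 96 h, or 0.611%, 0.437% and 0.546%. The log2 ratio was −0.49 for 24 h against 0 h (−0.80 to −0.18, adjusted p = 0.00485, Fisher's exact test over 48 genes, of which 5 or 10.4% were lower), 0.32 for 96 h against 24 h (0.01 to 0.63, adjusted p = 0.0591) and −0.16 for 96 h against 0 h (−0.46 to 0.13, adjusted p = 0.311). With a promoter window of 7.5 kb the 24 h value was −0.23 (exact test, adjusted p = 0.366), and with a window of 30 kb the 96 h value against 0 h was −0.28 (adjusted p = 0.00226).

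The enhancer window had 186 counts at 0 h, 160 at 24 h and 167 at 96 h. Its log2 ratio was −0.40 for 24 h against 0 h (−0.72 to −0.09, exact test, adjusted p = 0.0211, with 10 of 51 genes or 19.6% lower), 0.11 for 96 h against 24 h (adjusted p = 0.587) and −0.30 for 96 h against 0 h (−0.61 to 0.01, adjusted p = 0.0678). With an enhancer window of 30 kb the first of these was −0.11 (exact test, adjusted p = 0.296), and for 96 h against 0 h the call turned to lower in 3 of 7 alternatives. Most genes moved up in these measures: at 96 h against 0 h, promoter contact of the CBS was higher at 32 of 48 genes (66.7%) and lower at 3 (6.25%), and enhancer contact higher at 29 of 51 (56.9%) and lower at 4 (7.84%). At 96 h against 24 h the shares were 54.2% and 4.17% for the promoter and 56.9% and 1.96% for the enhancer. PTPRC ranked 43rd of 48 and 48th of 51 from the highest, where the medians were 0.49 and 0.44.

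In the CBS map most gains lay downstream. Against 0 h, 22 bins were higher at 96 h and 6 lower (background 19.6% and 16.3%; 16 and 10 with distant counts as the denominator), and 15 of the 22 lay downstream of the gene, 3 in it and 4 in NEK7, which had 1807 counts at 96 h and 1214 at 0 h (log2 ratio 0.45, 0.34 to 0.56). Inside PTPRC, the bins at chr1:198730001-198740000, chr1:198740001-198750000 and chr1:198750001-198760000 toward its 3′ end had 507, 459 and 403 counts at 96 h, against 350, 302 and 227 at 0 h, and all 3 were called. Toward the promoter, 4 gene bins were called lower, among them the bin downstream of the start site with 149 counts at 96 h and 202 at 0 h (log2 ratio −0.58, exact test, adjusted p = 0.00115). By segment, the stretch from the start site to exon 3 had 1540 counts at 96 h and 1724 at 0 h (−0.32, −0.42 to −0.22), and that from exon 3 to the gene's end 2462 and 1911 (0.24, 0.15 to 0.33). A reporter anywhere in the gene was found in 10.6% of counts in both libraries (66.7% of 48 genes were higher and 8.33% lower), and in 9.82% at 24 h, which was lower than at 0 h (12.5% of genes) and than at 96 h (62.5% of genes higher at 96 h). The largest rise, at chr1:198950001-198960000, had 75 counts at 96 h and 21 at 0 h (1.67, exact test, adjusted p = 3.03e-06).

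The bin with the start of MIR181A1HG had 82 counts at 96 h and 27 at 0 h from the CBS (log2 ratio 1.45, exact test, adjusted p = 1.06e-05). From the enhancer that bin had 57 at 96 h and 34 at 0 h (0.95, exact test, adjusted p = 0.00536). It was called higher from both viewpoints. Between 24 h and 0 h, 14 CBS bins were higher and 4 lower (15.6% and 6.01%; 10 and 6 with distant counts as the denominator), all 4 lower ones in PTPRC, and between 96 h and 24 h there were 9 higher and 10 lower (11.7% and 13.7%).

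**Figure D5:**
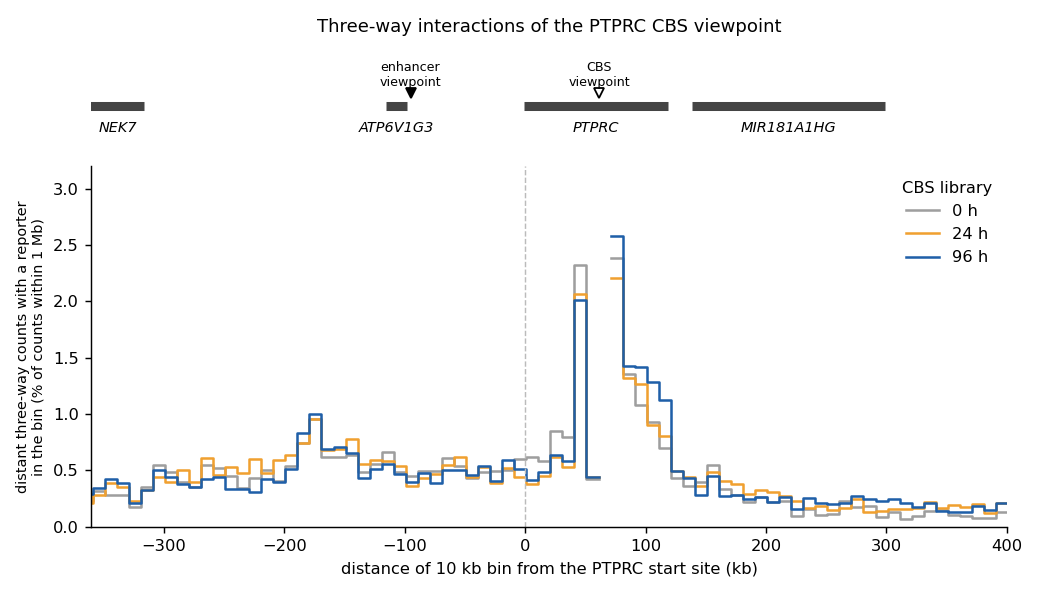
Distant three-way counts of the CBS viewpoint with a reporter in each 10 kb bin, as a percentage of counts within 1 Mb, by distance from the PTPRC start site, for the 0 h, 24 h and 96 h libraries; the gap is the bin of the viewpoint. At 96 h the 3 bins toward the gene's 3′ end stand above 0 h, and the bins downstream of the start site stand below it.

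Among neighboring genes, ATP6V1G3, seen from the CBS because it is too close to the enhancer to be measured from there, had 143 counts in the bin of its start at 96 h and 147 at 0 h (log2 ratio −0.18, exact test, adjusted p = 0.433). That bin also holds the enhancer viewpoint fragment and lies almost wholly in the 12 kb enhancer window. Its value is therefore not separate from the CBS contact with the enhancer given above. The start of NEK7 had 104 counts at 96 h and 91 at 0 h from the enhancer (0.41, exact test, adjusted p = 0.0889) and 69 in the depleted library (−1.26 against the 96 h control, exact test, adjusted p = 3.79e-08, and −0.59 on the distant scale). The bin with the start of ENSG00000261573, a long noncoding RNA on the minus strand within intron 2, had 367 counts at 96 h and 306 at 0 h from the enhancer (0.48, exact test, adjusted p = 7.39e-05). The bin of ENSG00000227747, a processed pseudogene beyond MIR181A1HG, had 53 counts at 24 h and 25 at 0 h (1.06, exact test, adjusted p = 0.00823).

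Over 10 log2 ratios (promoter and CBS contact of the enhancer and promoter and enhancer contact of the CBS, along the conversion and after depletion), the genes nearest to PTPRC among 47 were CD163, the macrophage hemoglobin-haptoglobin scavenger receptor, MPEG1 (MPEG in the labels), a pore-forming protein of macrophages, and TNFRSF1B, a receptor for tumor necrosis factor. Their Euclidean distances were 0.914, 1.05 and 1.12, and all genes of this ranking were read from the same conditions. All 3 had higher promoter contact at 96 h than at 24 h (0.67, 0.49 and 0.41) and lower promoter contact in the depleted library (−1.44, −1.07 and −1.08). None reached the 1.10 and −1.51 of PTPRC. Both measures are among the 10 used to pick these genes, so that likeness to PTPRC in them was built into the choice.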

How the data were processed

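Tri-C was performed on BLaER1 cells in 3 biological replicates per condition. Per the study's methods the authors analysed reads with CapCruncher in capture mode on hg38, merged replicates, took reads with at least 2 reporters in cis and counted all their three-way interactions. The deposited values are these whole-number counts per pair of NlaIII fragments, not normalized. Fragment ends at PTPRC (143943 fragments) all abut NlaIII sites of hg38. The enhancer, CBS and promoter windows were 12 kb wide, bins 10 kb. Windows and bins with at least 20 counts over a pair of libraries were compared by a two-sided Fisher's exact test against the remaining counts within 1 Mb (scipy 1.17.1). Log2 ratios are log2 odds ratios with a pseudocount of 0.5, and Benjamini-Hochberg adjustment was over all genes or all bins at 0.05. Of 53 genes, 2 (IFNGR2 and TASL) were left out. Intervals are exact (95%). Named genes were PTPRC, annotated genes within 500 kb, the 3 called bins of largest rise and fall with at least 50 counts, and the 3 genes nearest in log2 ratios. The bins named in the text also include those that hold the start sites, the block's highest bin and the runs, chosen after their values were seen. Members, lists and tests were chosen with earlier results of these data known. The exact test was checked on simulated binomial counts, which is the model it assumes. That check does not cover replicate spread, PCR copies or several counts from a read. Alternatives changed the window, denominator, distance and counting of pairs. A sequence within the gene is not reported here.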

Additional observations from a re-analysis of the deposited data

Results flagged for a closer look

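A pair of results moved in opposite directions between consecutive steps of the conversion. Each pair of steps shares its 24 h library, and the difference between the steps was not tested. The odds of a reporter of the enhancer lying beyond the CBS changed by −0.841 on the log2 scale for 96 h against 24 h and by 0.124 for 24 h against 0 h. Contact of the CBS with the gene body changed by 0.123 for 96 h against 24 h and by −0.127 for 24 h against 0 h, with 3446 counts at 0 h, 3622 at 24 h and 3789 at 96 h.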

How the results depend on the processing

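No paired analysis was possible because each library pools its 3 replicates, and for that reason no replicate could be left out. Of 201 alternative values for 39 results, 160 kept their side of the threshold or, for counts of bins, stayed within 1.5 times. None reversed a call. Direction was compared only where a value was called, and some uncalled values changed sign. An example is CBS contact with the promoter for 96 h against 0 h, −0.16 in the main setting and 0.07 with a 7.5 kb window. The gain in promoter contact of the enhancer ranged from 0.87 to 1.16 (log2) for 96 h against 0 h over its 7 alternatives, and the loss in the depleted library from −1.51 to −0.85; both passed the test in all of them. The results of the CBS viewpoint crossed the threshold more often. For 24 h against 0 h, CBS contact with the enhancer was −0.37 with a 7.5 kb window, −0.11 with a 30 kb window and −0.41 with counts divided by 3. CBS contact with the promoter was −0.23 with a 7.5 kb window and −0.48 with counts divided by 3, and with the gene body −0.13 with counts divided by 3. None of these passed the test, nor did the 0.12 of the gene body for 96 h against 24 h with counts divided by 3. The 24 h rise beyond the CBS missed the threshold with each pair counted once (0.10) and with counts divided by 3 (0.12). For 96 h against 0 h, CBS contact with the enhancer passed as lower with distant counts as the denominator (−0.37), with distant set beyond 20 kb (−0.39) and with each pair counted once (−0.39). CBS contact with the promoter did so with a 30 kb window (−0.28) and beyond 20 kb (−0.43), and with the gene body with distant counts as the denominator (−0.11).

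Numbers of called bins moved more. With counts divided by 3, higher and lower bins of the CBS viewpoint numbered 0 and 0 for 24 h against 0 h, 2 and 0 for 96 h against 0 h and 0 and 1 for 96 h against 24 h. For the enhancer viewpoint they numbered 0 and 0, 7 and 2, and 7 and 0, with 6 higher in the depleted library. With each pair counted once, there were 9 higher CBS bins at 24 h against 0 h and 6 lower at 96 h against 24 h. The enhancer then had 3 higher at 24 h against 0 h, 7 lower at 96 h against 24 h, and 28 higher and 30 lower in the depleted library. With 20 kb bins, of which about 51 were tested, the enhancer had 6 lower at 24 h against 0 h, 11 higher at 96 h against 0 h, 9 higher at 96 h against 24 h and 27 lower in the depleted library. With distant counts as the denominator the depleted library had 41 higher and 26 lower, and the CBS 10 lower at 96 h against 0 h. Counts divided by 3 and larger bins leave fewer counts or fewer bins to call; the cause of the other shifts was not tested. Depth limits the three-element interactions, which were too few to test.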
